A study of Homo sapiens with 4 samples.

Results

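The genes described here are a set of 10 glucose transporters and enzymes of glycolysis (SLC2A1, SLC2A3, HK1, HK2, PFKP, PFKFB3, ALDOA, PGK1, ENO1 and LDHA), picked out by gene symbol, with earlier results of these data known. Rows carrying the symbol in the platform annotation were found for 8 of the 10, as 12 of the 42152 rows of the table and 8 of the 15073 named genes; PGK1 and PFKFB3 were not analysed here. The cells were CAL-27, a long-established cell line from a human squamous carcinoma of the tongue. One group was the parental line, with no drug selection named in its labels. The other was a cisplatin-resistant derivative, made by exposing CAL-27 cells to cisplatin, a platinum drug that crosslinks DNA, at concentrations raised stepwise from 1e-07 M to 1e-05 M. Both groups were grown in DMEM with fetal bovine serum. Each group had 2 arrays, which the series calls biological replicates. Whether the resistant line was a clone or a mixed population, and whether drug was present at harvest, is not given in the sources used here. Values are log2 intensities of 1-colour arrays, differences are resistant minus parental, and the comparison asked which transcripts set the resistant line apart from its parent.

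Glucose enters most cells through facilitative transporters of the SLC2A (GLUT) family and is trapped by hexokinases as glucose phosphate. Phosphofructokinase, whose activator is made by PFKFB enzymes, commits the sugar to glycolysis. Aldolase, phosphoglycerate kinase and enolase then carry it toward pyruvate, which lactate dehydrogenase reduces to lactate. Several steps have alternative isozymes with different tissue distributions, and squamous carcinomas are known for high glucose uptake and lactate output.

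Across the 4 arrays the median log2 intensity lay between 7.14 and 7.23 and the highest between 15.93 and 15.99. All 9 listed markers of squamous epithelial cells had a mean log2 intensity above 8 in the parental arrays and 8 of the 9 in the resistant arrays, and their summed level on the log2 scale was 17.87 to 17.88 in parental and 16.69 to 16.76 in resistant arrays. Of these 9, KRT14, KRT6A, TP63 and DSG3 fell by limma's test across all genes, which called 6.10% of genes (2.83% lower), and 5 did not pass. With limma's prior variance following intensity, 6 of the 9 were lower and 2, CDH1 (0.76) and EPCAM (0.91), were higher, against 11.5% and 9.93% of all genes. The summed level of 6 fibroblast markers was 8.52 to 8.63 in parental and 10.75 to 11.00 in resistant arrays, with only COL1A1 above a mean of 8, and that of 5 endothelial markers 7.82 to 8.11 and 9.54 to 9.85, with only CDH5 above 8. Only COL1A1 (3.23) and CDH5 (5.02) of these were called higher, against 3.26% of all genes. COL1A2, COL3A1, DCN and THY1 differed by -0.26, -0.54, -0.57 and -0.08, and KDR and ERG by -0.61 and -1.25. PDGFRB, PECAM1 and VWF differed by 0.96, 0.39 and 0.76 and did not pass. The sums were 12.11 to 12.26 and 12.16 to 12.24 for 7 leukocyte markers and 9.27 to 9.62 and 9.23 to 9.63 for 3 muscle markers. In both groups 4 of the 7 leukocyte markers and 1 of the 3 muscle markers had a mean above 8. No marker was at 0, since the lowest log2 value of any array was 3.14, and PTPRC, the defining leukocyte gene, lay between 4.35 and 6.03. CD68, from the same list, had means of 11.58 in parental and 11.35 in resistant arrays. LCP1 differed by 1.27 (limma's adjusted p = 0.0580, and 0.0029 with the prior following intensity). It was the 1 leukocyte marker called higher with that prior, against 9.93% of all genes. The part of these marker differences in the results below was not tested.

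The 2 measured glucose transporter genes of the set moved in opposite directions while its 6 measured enzyme genes did not pass the test. SLC2A1, which encodes the widely expressed transporter GLUT1, fell 3.81-fold in the resistant cells. SLC2A3, which encodes GLUT3, a transporter best known from neurons, rose 3.29-fold. With limma's moderated test and Benjamini-Hochberg adjustment over all 15073 genes at a threshold of 0.05, 2 of the 8 measured genes passed, against 6.10% of all genes (3.26% higher and 2.83% lower). The other 6 had differences between -0.35 and 0.24. Over the 8 genes the median difference was 0.07 and the median size of a difference 0.22, against -0.03 and 0.48 over all genes tested. The groups did not overlap in 6 of the 8 genes, 3 higher and 3 lower, against 59.0% of all genes (27.9% higher and 31.0% lower), so that lack of overlap alone is common in these arrays.

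**Figure D1:**
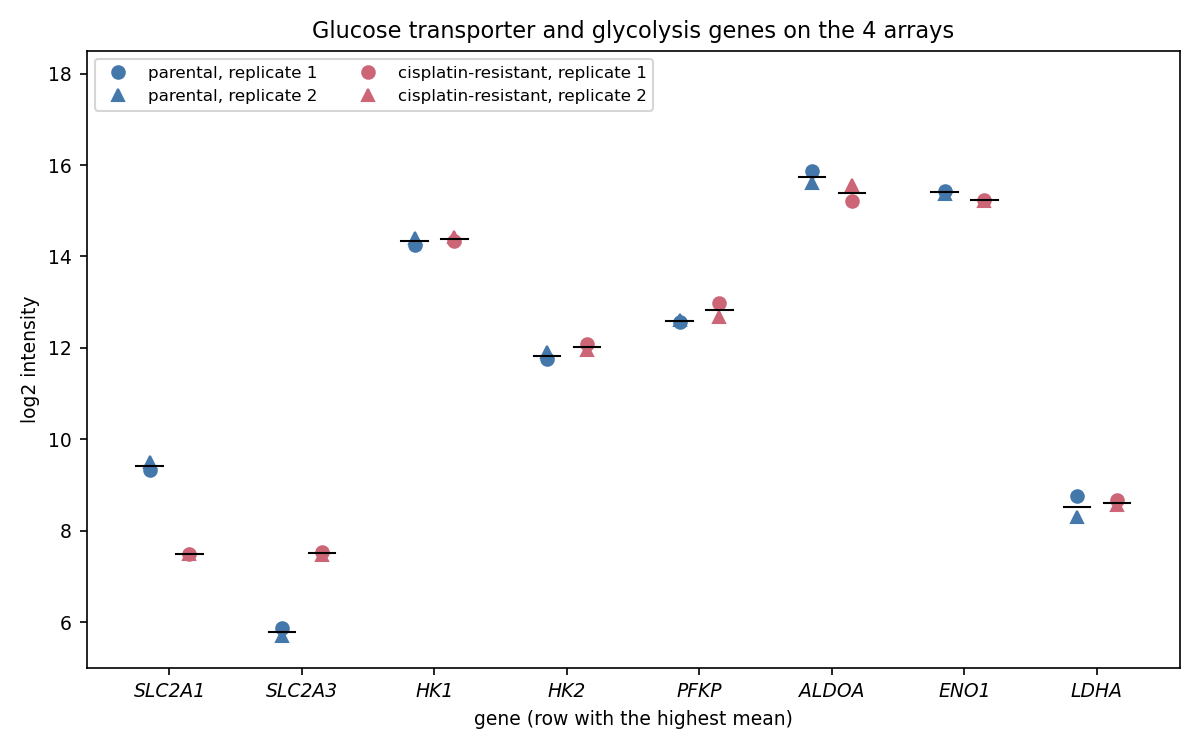
Log2 intensity (vertical axis) of the 8 measured genes (horizontal axis) on each of the 4 arrays; circles are replicate 1, triangles replicate 2, blue parental and red cisplatin-resistant, and black lines are group means. SLC2A1 dropped from a mean of 9.42 to 7.49 and SLC2A3 went from 5.78 to 7.50, while the group means of each of the 6 enzyme genes differed by -0.35 to 0.24. Heights of different genes come from different probes and are not to be ranked.

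SLC2A1 read 9.32 and 9.51 in the parental arrays and 7.48 and 7.49 in the resistant arrays. On the linear scale these are intensities of 640.0 and 730.1 against 178.8 and 179.8. Both resistant arrays lay below both parental arrays, and the gap between groups far exceeded the gaps of 0.19 between the parental and 0.01 between the resistant replicates. The log2 difference was -1.93 ± 0.19 (difference ± SE, n = 2 arrays per group), with a 95% interval from -2.46 to -1.40 and limma's adjusted p = 0.0274. A larger change in either direction was seen in 4.60% of all genes. In RNA of a whole culture, a smaller number of cells expressing a gene and less RNA per cell cannot be told apart.

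SLC2A3 read 5.88 and 5.69 in the parental arrays and 7.54 and 7.46 in the resistant arrays. As intensities these are 58.8 and 51.6 against 186 and 177. The parental values were dim, below the median of their arrays, and the resistant values were above it. The log2 difference was 1.72 ± 0.19 (n = 2 arrays per group), with a 95% interval from 1.19 to 2.25 and limma's adjusted p = 0.0316. No detection calls were used here, so the fold of so dim a gene is nominal. SLC2A14, which encodes GLUT14, a close copy of GLUT3, read 6.19 and 6.18 in the parental and 8.54 and 8.13 in the resistant arrays. It rose as well, by 2.15 ± 0.23 (limma's adjusted p = 0.0302), which is 4.44-fold. The parental values of SLC2A14 were also dim, below the median of their arrays, so its fold is nominal too. SLC2A3 and SLC2A14 are near-identical copies whose probes may share signal, which was not tested.

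Set against each other within each array, where the scaling of arrays cancels, SLC2A3 rose over SLC2A1 by 3.65 on the log2 scale. This is a 12.5-fold change of the ratio. It combines the differences of both genes given above and is no further measurement. The parental values of SLC2A3 were dim, so this fold is nominal too. Relative to the parental mean the log2 ratio was 0.19 and -0.19 in the parental arrays and 3.69 and 3.61 in the resistant arrays, so the groups were far apart. The exact two-sided permutation test over the 4 arrays gave p = 0.333, which is the smallest p that 2 against 2 arrays allow. The change was between 3.46 and 3.84 when any single array was left out.

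Neither transporter call outlasted the loss of an array under the test with a constant prior variance. Limma's adjusted p for SLC2A1 was 0.0975 and 0.107 without replicates 1 and 2 of the parental cells, and 0.220 and 0.214 without replicates 1 and 2 of the resistant cells. For SLC2A3 it was 0.0990, 0.111, 0.220 and 0.224 in the same order. These fits have 1 residual degree of freedom and called 0 of 15073 genes (2536 to 4042 had an unadjusted p under 0.05, among them both transporters each time). With limma's prior variance following intensity, SLC2A1 passed without each array in turn (adjusted p between 0.0072 and 0.0136). Under that prior SLC2A3 passed without parental replicate 1 (adjusted p = 0.0402) and missed without the other parental array (adjusted p = 0.0580) and without replicate 1 or replicate 2 of the resistant cells (adjusted p = 0.210 and 0.188). With all 4 arrays that prior called the same 2 of the 8 genes (adjusted p = 0.0013 for SLC2A1 and 0.0287 for SLC2A3), against 21.5% of all genes (9.93% higher and 11.5% lower). When all 42152 rows were tested together with a constant prior, the adjusted p was 0.0872 for the SLC2A1 row and 0.0968 for the SLC2A3 row, and limma called 0 rows (7896 had an unadjusted p under 0.05, and 3960, or 9.39%, were called with the prior following intensity).

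**Figure D2:**
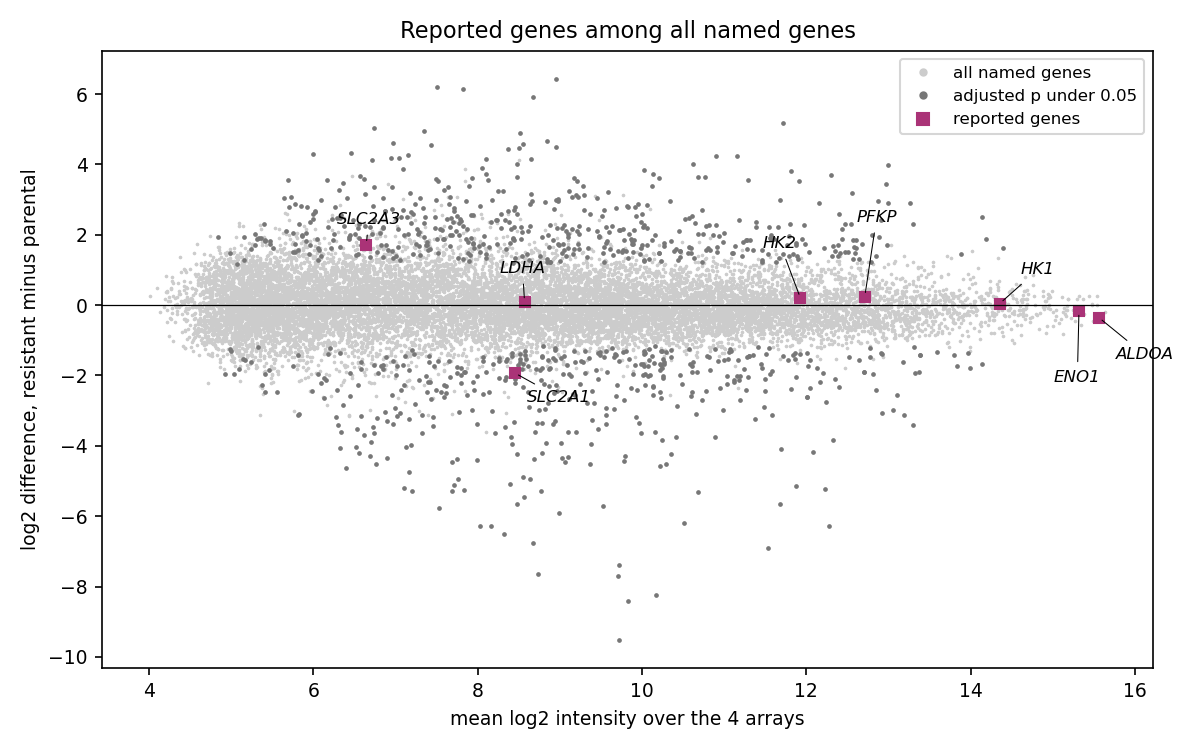
Log2 difference, resistant minus parental (vertical axis), against mean log2 intensity over the 4 arrays (horizontal axis) for all 15073 named genes (light grey), those with an adjusted p under 0.05 (dark grey) and the 8 reported genes (purple squares). SLC2A1 at -1.93 and SLC2A3 at 1.72 lie among the called genes, and the 6 enzyme genes lie in the central band, ALDOA, ENO1 and HK1 at its bright end.

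Hexokinases phosphorylate glucose on entry; HK1 is the form found in most tissues, and HK2 is the form of muscle and of many tumours. HK1 read 14.25 and 14.41 in the parental arrays and 14.33 and 14.42 in the resistant arrays. The groups overlapped, and the difference of 0.04 ± 0.19 was smaller than the gap of 0.16 between the parental replicates (95% interval -0.48 to 0.57, limma's adjusted p = 0.899). Its other rows differed by 0.01 and -0.14, and the sign of HK1 turned with median centring of the arrays (-0.026) and with the mean of its 3 rows (-0.028). HK2 read 11.75 and 11.90 in the parental arrays and 12.09 and 11.96 in the resistant arrays. Both resistant values were above both parental values, but by less than the replicates differed among themselves. The difference of 0.20 ± 0.19 did not pass (95% interval -0.33 to 0.73, limma's adjusted p = 0.557). Within arrays HK2 changed over HK1 by 0.15, with log2 ratios of 0.0028 and -0.0028 in the parental and 0.26 and 0.04 in the resistant arrays relative to the parental mean (exact two-sided permutation p = 0.333, the smallest possible).

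PFKP, the platelet form of phosphofructokinase, which also occurs in many tumours, read 12.56 and 12.62 in the parental arrays and 12.98 and 12.69 in the resistant arrays. The resistant values were the higher ones, with resistant replicate 2 only just above the parental pair. The difference of 0.24 ± 0.21 did not pass (95% interval -0.33 to 0.82, limma's adjusted p = 0.505), and it was 0.10 without resistant replicate 1 and 0.39 without resistant replicate 2. The muscle form PFKM differed by -0.20 ± 0.22 (limma's adjusted p = 0.608). The change of PFKP over PFKM within arrays was 0.44, with 0.77 in resistant replicate 1 and 0.12 in resistant replicate 2. This pair was set up after the values were seen, because PFKL was not analysed here, and was therefore not tested.

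ALDOA, the aldolase of muscle and most growing cells, splits the phosphorylated hexose into triose phosphates. Its brightest row read 15.87 and 15.60 in the parental arrays and 15.21 and 15.55 in the resistant arrays. Parental replicate 2 and resistant replicate 2 almost touched, and the difference of -0.35 ± 0.23 did not pass (95% interval -1.01 to 0.30, limma's adjusted p = 0.401). It was -0.22 without parental replicate 1, -0.18 without resistant replicate 1 and -0.16 with the mean of its 2 rows. The second row of ALDOA differed by 0.04 ± 0.27 in the fit over all rows, and its groups overlapped. ENO1, the enolase of most tissues, read 15.43 and 15.37 in the parental arrays and 15.24 and 15.22 in the resistant arrays. The resistant values were lower and the replicates tight, with gaps of 0.06 and 0.03, yet the difference of -0.17 ± 0.18 did not pass (95% interval -0.67 to 0.33, limma's adjusted p = 0.585). Both genes lay near the highest log2 values of the arrays (15.93 to 15.99), where differences may be compressed.

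LDHA encodes the lactate dehydrogenase subunit that favours the reduction of pyruvate. Its brighter row read 8.76 and 8.29 in the parental arrays and 8.67 and 8.56 in the resistant arrays. The groups overlapped and the parental replicates spanned the resistant pair. The difference was 0.09 ± 0.25 (95% interval -0.60 to 0.78, limma's adjusted p = 0.844), and its sign turned without parental replicate 2 (-0.14). The second row read 8.35 and 8.70 against 8.30 and 7.83 and differed by -0.46 ± 0.31 in the fit over all rows, so the 2 rows of LDHA pointed in different directions. LDHB, the subunit of heart and other oxidative tissues, differed by -0.07 ± 0.20 (limma's adjusted p = 0.859). Within arrays LDHA changed over LDHB by 0.16, less than the spread of the parental pair (0.34 and -0.34 around their mean, exact two-sided permutation p = 1).

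**Figure D3:**
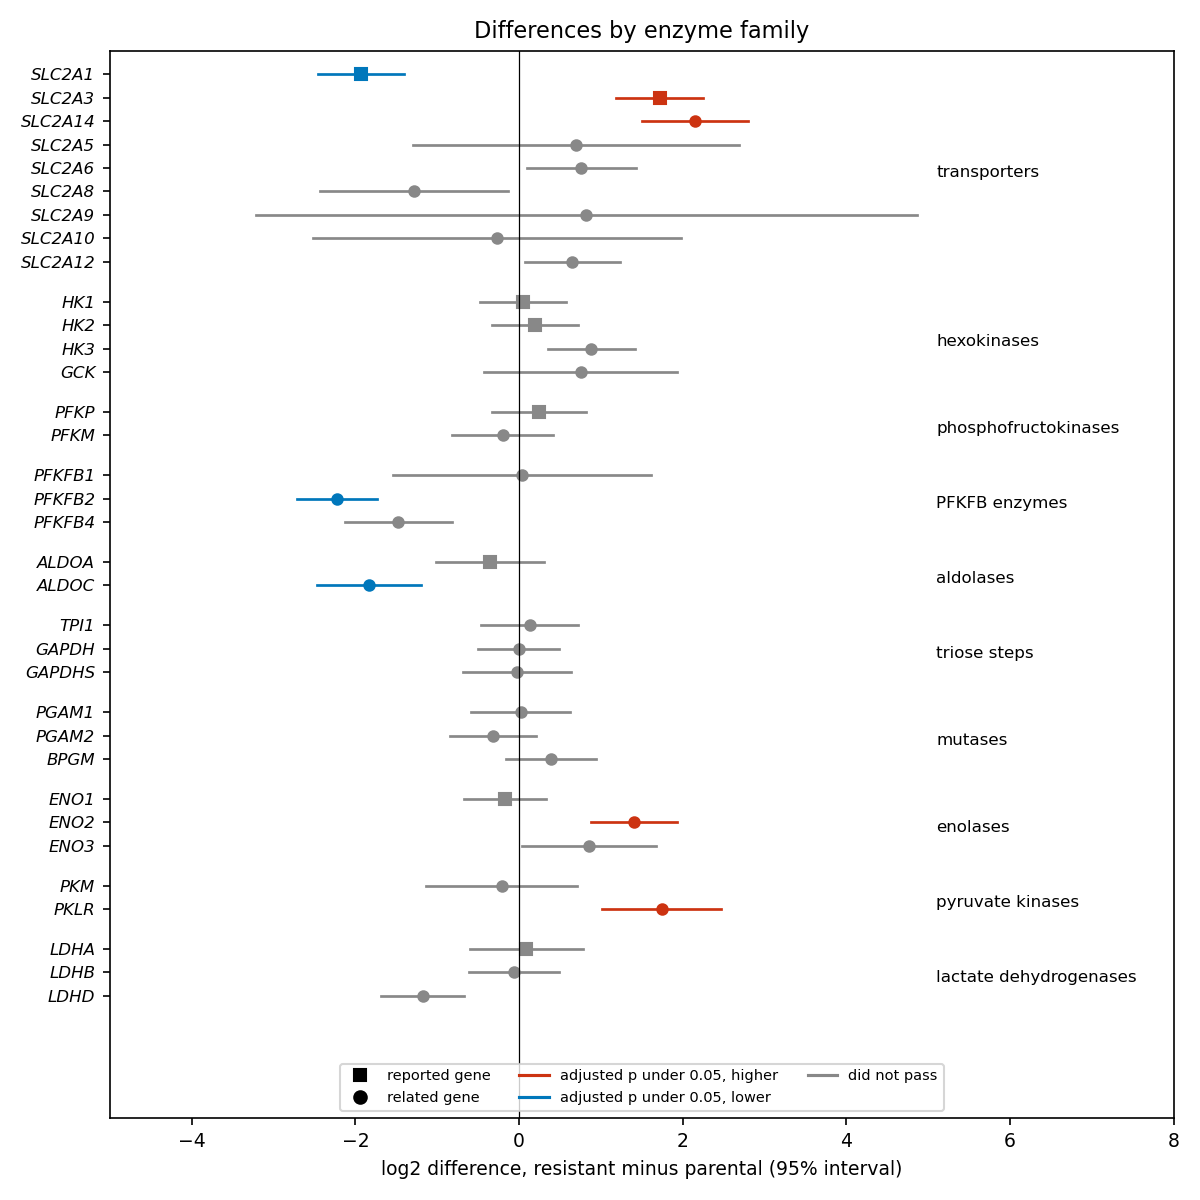
Log2 difference, resistant minus parental, with limma's 95% interval (horizontal axis) for each measured sugar transporter of the SLC2A family and each measured isozyme of the glycolytic steps, by family (vertical axis); squares are the 8 reported genes, circles related genes, red and blue those with an adjusted p under 0.05. The intervals of the 6 reported enzyme genes all cross 0, whereas those of the called isozymes PFKFB2, ALDOC, ENO2 and PKLR do not, nor do those of PFKFB4, HK3, ENO3 and LDHD, which did not pass.

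The start regions of SLC2A1, which fell, and of ENO1, which did not pass, are shown because these are the measured genes of the set with a single start in the RefSeq promoter table used here (build GRCh38.p14). Each runs over the 250 bases before the annotated start, 5′ to 3′ on the minus strand, at chr1:42958869-42959118 for SLC2A1 and chr1:8878687-8878936 for ENO1. Capitals mark the core letters of the element bound by hypoxia-inducible factors, ACGTG or GCGTG on either strand.
SLC2A1: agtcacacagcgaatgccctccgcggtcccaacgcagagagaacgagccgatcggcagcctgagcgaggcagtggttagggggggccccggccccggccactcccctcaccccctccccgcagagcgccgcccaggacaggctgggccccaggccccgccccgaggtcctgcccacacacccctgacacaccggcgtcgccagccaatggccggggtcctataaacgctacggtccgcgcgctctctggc
ENO1: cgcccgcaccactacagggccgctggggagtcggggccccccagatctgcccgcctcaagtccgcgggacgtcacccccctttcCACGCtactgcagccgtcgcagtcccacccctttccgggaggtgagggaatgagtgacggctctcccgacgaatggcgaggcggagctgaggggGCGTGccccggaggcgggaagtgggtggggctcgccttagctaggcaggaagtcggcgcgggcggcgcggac
The SLC2A1 window held 0 such cores and the ENO1 window 2, beginning 166 and 72 bases before the start. Elements outside these windows were not searched, and the letters alone do not show binding. Of all 35116 windows of this length in the table, 43.2% held at least 1 core. The GC box GGGCGG, the letters of SP1 binding, was in both windows and in 42.6% of all. SLC2A3 had no entry. Counting every start listed for the other measured genes, a core was found in 2 of 2 starts of HK2, 2 of 2 of LDHA, 3 of 3 of ALDOA, 2 of 4 of PFKP and 1 of 7 of HK1. The E-box CACGTG, which contains the letters ACGTG, was in 6.3% of all windows, in 1 start each of HK2, LDHA and ALDOA and in neither printed window.

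Beyond the set, 69 of 92 listed genes of sugar metabolism were measured, in 9 groups. Of these, 4 rose, 3 fell and 62 did not pass, with a median difference of -0.07. Over all genes 6.10% passed, with a median difference of -0.03. The 7 that passed were SLC2A14 (above), ALDOC, ENO2, PKLR, PFKFB2, PDP1 and ARRDC4. When the prior followed intensity, 9 genes were higher and 10 lower, against 9.93% and 11.5% of all genes, and without any single array the constant prior called 0 of them (16 to 18 had an unadjusted p under 0.05).

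**Figure D4:**
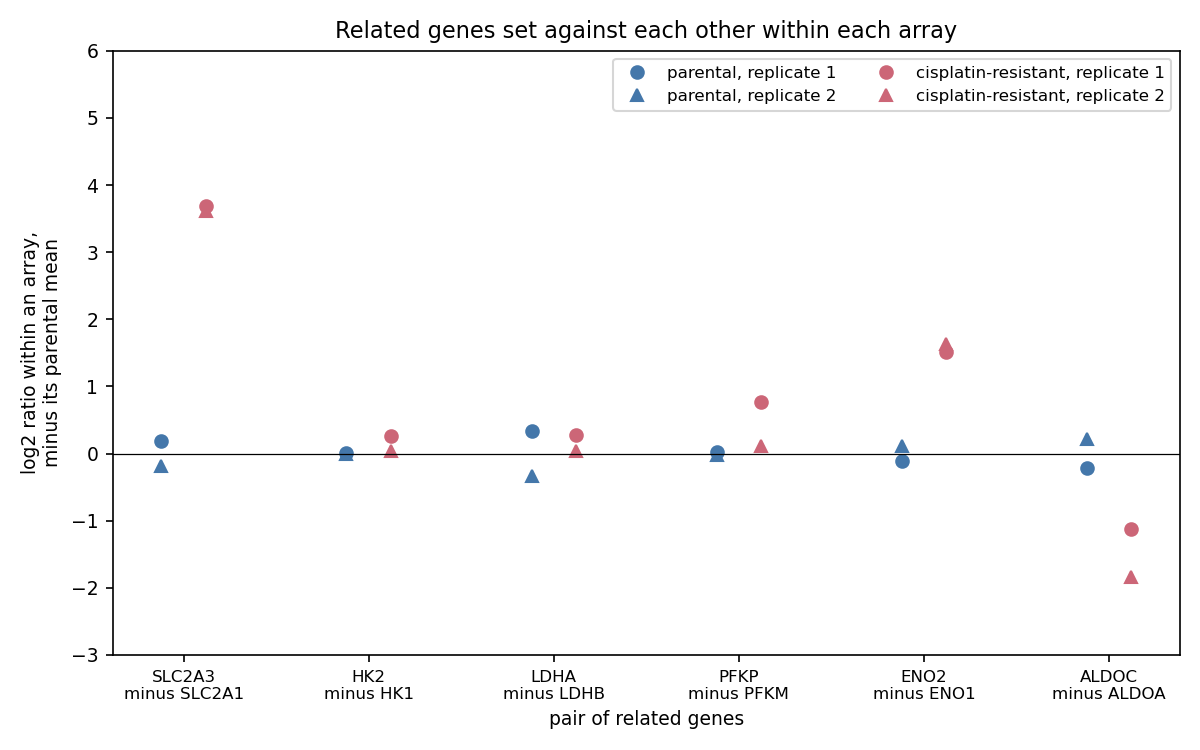
Log2 ratio of a pair of related genes within each array, minus the mean of the 2 parental arrays (vertical axis), for 6 pairs (horizontal axis); circles are replicate 1, triangles replicate 2, blue parental, red cisplatin-resistant. SLC2A3 over SLC2A1 moved by 3.65 and ENO2 over ENO1 by 1.57, ALDOC over ALDOA moved down by -1.48, and the pairs of HK2, LDHA and PFKP moved by 0.15, 0.16 and 0.44. SLC2A3 was dim in the parental arrays, so the size of its move is nominal.

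Among 14 other glycolytic enzymes 2 rose, 1 fell and 11 did not pass (median difference 0.07). ENO2, the enolase of neurons and endocrine cells, read 11.60 and 11.77 in the parental and 13.05 and 13.13 in the resistant arrays. Both resistant values were higher, and it rose by 1.40 ± 0.19 (2.64-fold, limma's adjusted p = 0.0414). PKLR, the pyruvate kinase of liver and red cells, read 7.33 and 7.40 against 8.84 and 9.37. It rose by 1.74 ± 0.26 (limma's adjusted p = 0.0482). ALDOC, the aldolase of brain, read 11.66 and 11.82 against 10.09 and 9.72. It fell by 1.83 ± 0.23 (3.56-fold lower, limma's adjusted p = 0.0372). In pairs chosen after the values were seen and therefore not tested, ENO2 changed over ENO1 by 1.57 and ALDOC over ALDOA by -1.48 within arrays. The next smallest p belonged to the hexokinase HK3 (0.88 ± 0.19, limma's adjusted p = 0.0811), the muscle enolase ENO3 (0.86 ± 0.29, adjusted p = 0.167) and BPGM, which makes bisphosphoglycerate (0.39 ± 0.20, adjusted p = 0.294). With the prior following intensity ENO3 was called higher (limma's adjusted p = 0.0479). That prior called 3 of the 14 higher and 1 lower, against 9.93% and 11.5% of all genes. GAPDH and PKM, the common forms of their steps and chosen after their values were seen, differed by -0.00061 ± 0.18 and -0.21 ± 0.33. Like ALDOA and ENO1 they lay near the highest log2 values of the arrays, where differences may be compressed.

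PFKFB enzymes make and degrade the activator of phosphofructokinase, and 3 relatives of PFKFB3 were measured. PFKFB2, known from heart, read 9.56 and 9.56 in the parental arrays and 7.34 and 7.33 in the resistant arrays. The replicates nearly coincided, and it fell by 2.22 ± 0.18 (4.67-fold lower, limma's adjusted p = 0.0205). Its dimmer row differed by -1.07 ± 0.25 in the fit over all rows. PFKFB4 read 8.56 and 8.99 against 7.26 and 7.33, with no overlap. Its difference of -1.47 ± 0.23 missed the threshold (limma's adjusted p = 0.0525, and 0.0116 with the prior following intensity). PFKFB1 was dim and its groups overlapped (0.03 ± 0.56, limma's adjusted p = 0.976).

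Of 7 other sugar transporters 1 rose (SLC2A14) and 6 did not pass. SLC2A6 differed by 0.76 ± 0.24, SLC2A12 by 0.65 ± 0.21 and SLC2A8, a transporter of internal membranes, by -1.28 ± 0.41, with limma's adjusted p of 0.145 for SLC2A6 and 0.150 for each of the others. With the prior following intensity 2 transporters were higher, SLC2A14 and SLC2A6 (adjusted p = 0.0196), and SLC2A8 was lower (adjusted p = 0.0428). Over all genes that prior called 9.93% higher and 11.5% lower. Of 6 lactate enzymes and carriers 0 passed. An unadjusted p under 0.05 in limma was found for 2 of them, against 4250 of all 15073 genes. With the prior following intensity 1 was higher and 1 lower. These were LDHD, which oxidises D-lactate, at -1.18 ± 0.18 (limma's adjusted p = 0.0501), and SLC16A3, the lactate exporter MCT4. SLC16A3 read 12.14 and 12.32 against 13.28 and 13.51, with no overlap, and its difference of 1.17 ± 0.20 had an adjusted p of 0.0608 in limma (0.00077 with the prior following intensity). Its 3 rows differed by 0.62 to 1.17. SLC16A1, the lactate carrier MCT1, differed by -0.65 ± 0.33 (limma's adjusted p = 0.291).

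Of 10 genes of pyruvate entry into mitochondria PDP1 rose and 9 did not pass. PDP1, a phosphatase that activates pyruvate dehydrogenase, read 10.21 and 10.53 in the parental and 11.76 and 11.93 in the resistant arrays, and rose by 1.48 ± 0.22 (limma's adjusted p = 0.0474). PDK1, a kinase with the opposite action, differed by -0.98 ± 0.32 (adjusted p = 0.153), the carrier gene MPC2 by -1.54 ± 0.62 in a row with a long non-coding RNA identifier (adjusted p = 0.214) and PDP2 by -0.50 ± 0.25 (adjusted p = 0.278). Of 5 measured regulators ARRDC4 fell and 4 did not pass. ARRDC4, an arrestin-like gene induced by glucose and a brake on its uptake, read 9.27 and 9.30 against 7.93 and 7.58, and fell by 1.53 ± 0.22 (limma's adjusted p = 0.0452). MLXIP, which encodes the glucose-sensing factor MondoA, differed by 0.69 ± 0.24 (adjusted p = 0.175, and 0.0236 with the prior following intensity), the hypoxia factor gene EPAS1 by -0.94 ± 0.19 (adjusted p = 0.0743, and 0.0038 with that prior) and MYC by -0.24 ± 0.18 (adjusted p = 0.444).

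**Figure D5:**
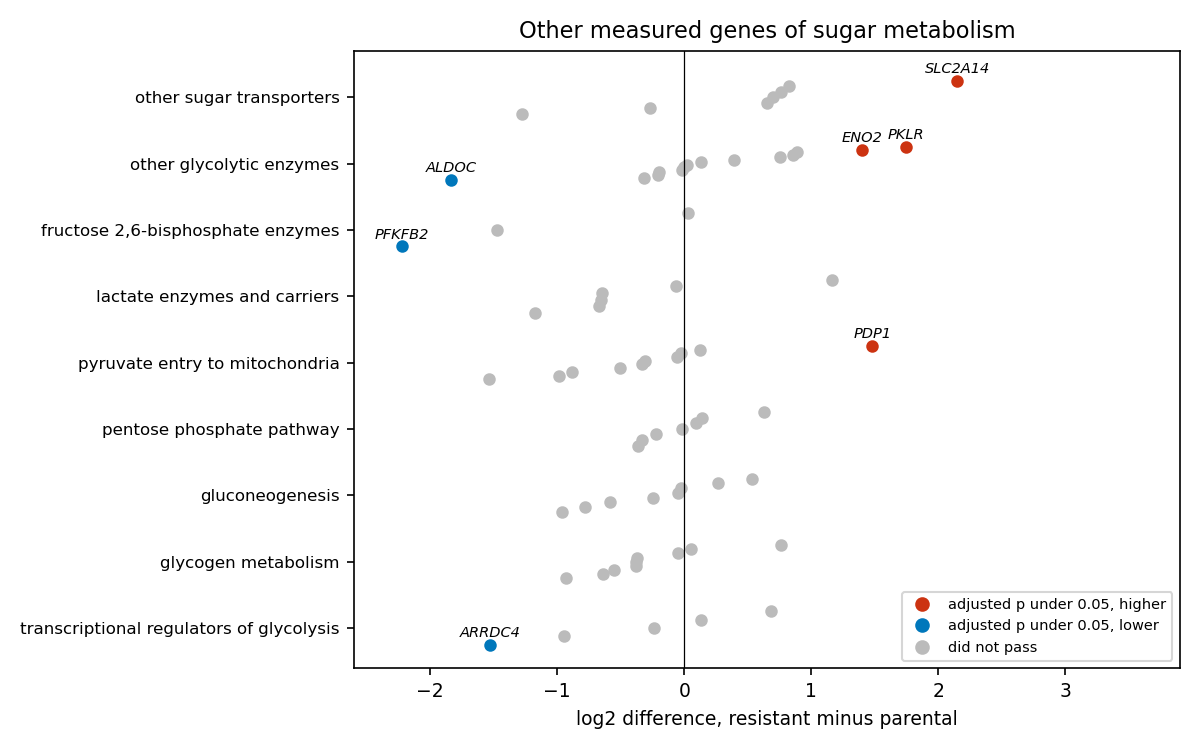
Log2 difference, resistant minus parental (horizontal axis), of the 69 other measured genes of sugar metabolism, 1 point per gene in 9 groups (vertical axis), with the 7 genes of adjusted p under 0.05 named and in red (higher) or blue (lower). The brightest rows of the pentose phosphate genes lie between -0.37 and 0.63, and no gene passed in the groups of lactate, pentose phosphate, gluconeogenesis and glycogen.

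In the side branches 0 genes passed, against 6.10% of all genes. Over all genes, 4250 of 15073 had an unadjusted p under 0.05 in limma's main test. With the prior following intensity 9.93% of all genes were higher and 11.5% lower. For the 7 pentose phosphate genes the median difference was -0.02 (1 with an unadjusted p under 0.05 in limma, and 1 called higher with the prior following intensity). RPIA, an isomerase of the branch, differed by 0.63 ± 0.21 (limma's adjusted p = 0.154), RPE by -0.37 ± 0.23 (0.22 in its other row) and PGD by -0.33 ± 0.22. The brighter row of TKT, the transketolase gene, differed by 0.09 ± 0.21, but its other row, chosen here after its value was seen, by -1.81 ± 0.30 in the fit over all rows (limma's adjusted p = 0.115, and 0.0051 with the prior following intensity). For 8 gluconeogenesis genes the median was -0.15 (1 with an unadjusted p under 0.05, and 1 called lower with the prior following intensity). The latter was PCK2, the mitochondrial form of PEP carboxykinase, at -0.96 ± 0.19 (limma's adjusted p = 0.0714, and 0.0020 with the prior following intensity); the dim gene G6PC1 differed by 0.53 ± 0.26 and G6PC3 by 0.27 ± 0.18. For 9 glycogen genes the median was -0.38 (2 with an unadjusted p under 0.05, and 2 called lower with the prior following intensity). These were GYG1, the primer protein of glycogen, at -0.93 ± 0.21 (limma's adjusted p = 0.0847), and PYGB, a glycogen phosphorylase, at -0.55 ± 0.18 (adjusted p = 0.159). GBE1, the branching enzyme, differed by 0.76 ± 0.31 (adjusted p = 0.211).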

How the data were processed

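Total RNA of 4 CAL-27 samples was turned into double-stranded cDNA from oligo-dT and labelled by random priming with Cy3, per the labels' protocols. Both strands carry dye, so overlapping antisense transcripts cannot be told apart. The deposited intensity values are on a linear scale and were made by the authors with RMA, per the submitters' processing notes; version, row filter and genome build are not given in the sources used here. They were taken to log2 without further normalization. The platform annotation named 17899 rows, with symbols updated by gene ID, and RefSeq accessions named 674 more; the row with the highest mean stood for a gene (15073 genes, 2816 with several rows). The 2 groups were set against each other in R 4.3.3 by limma 3.58.1 (lmFit, then eBayes, constant prior variance). Benjamini-Hochberg adjustment was over all genes, with a threshold of 0.05. A run on simulated data checked only that the average size of planted changes was recovered, not the calls. The planted changes were in genes above a mean intensity that SLC2A3 did not reach. Alternatives were a prior variance following intensity, median centring, quantile normalization, minimum mean log2 intensities of 6 and 8, the mean of rows, a replicate block and leaving out arrays. Members and lists were chosen with earlier results of these data known. Named were all members, list genes that passed and up to 3 more per list by smallest p, and the pair partners; GAPDH, PKM and a TKT row were added after their values were seen. Only 4 arrays limit the precision of every value.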

Additional observations from a re-analysis of the deposited data

How the results depend on the processing

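The differences of SLC2A1 and SLC2A3 kept their direction in every alternative run, between -2.03 and -1.84 for SLC2A1 and between 1.62 and 1.81 for SLC2A3, which was too dim to be tested at a minimum mean of 8. The calls were 2 of 8 genes in the main test, 1 at a minimum mean of 8, 0 with a replicate block, 2 with the block and a prior variance following intensity and, without single arrays, 0 to 2. The replicate block left 1 residual degree of freedom. It kept the differences at -1.93 for SLC2A1 (adjusted p = 0.0893) and 1.72 for SLC2A3 (adjusted p = 0.0916), and 0 genes, 0 rows and 0 other pathway genes were called (3882 genes, 7087 rows and 21 pathway genes had an unadjusted p under 0.05). The block jointly with a prior variance following intensity called 3500 genes in all, 4884 rows and 20 pathway genes. Same-numbered arrays deviated together at r = 0.163 across 42152 rows, and no label says that the numbers pair cultures. The minimum means cut the genes tested from 15073 to 11751 at 6 and 8022 at 8. Genes, members and other pathway genes called at these minimum means therefore come from smaller sets. Their counts are not directly comparable with those of the main test. In place of 919 genes, 3234 were called with the prior following intensity, 2120 at a minimum mean of 6 and 2876 at 8, and 0 to 2797 without single arrays. Other pathway genes numbered 19, 14 and 18 under those 3 settings instead of 7, and 0 to 16 without single arrays, and rows 3960, 1665 and 3949 instead of 0, and 0 to 3541. Median centring turned HK1 to -0.026, and the mean of all rows turned HK1 to -0.028, LDHA to -0.19 and LDHA over LDHB to -0.12. Leaving out arrays took HK1 from -0.033 to 0.12, LDHA from -0.14 to 0.33 and LDHA over LDHB from -0.18 to 0.50. The causes were not tested. HK2, PFKP, ALDOA and ENO1 kept their sign and did not pass in any alternative run, ALDOA ranging from -0.53 to -0.16. The planned ratios of PFKP to PFKL and PFKFB3 to PFKFB4 were not run, and the pairs with PFKM, ENO1 and ALDOA were added after seeing the data. Signal over background could not be judged without detection calls, which limits dim genes such as SLC2A3.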
